A study of Mus musculus with 8 samples.

Results

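The antioxidant and glutathione genes described here are 69 probesets for 64 genes, of 35512 probesets on the array. They were chosen by gene symbol alone, as every probeset with a single symbol for a superoxide dismutase, catalase, glutathione synthesis or recycling enzyme, glutathione peroxidase, peroxiredoxin, thioredoxin, glutathione S-transferase, heme oxygenase, Nqo1 or metallothionein. Another 6 probesets that carry several such symbols, all for near-identical Gsta or Gstp copies, were left out. Of the 69 probesets, 55 (51 genes) reached a mean signal of 60, a log2 signal of 5.91, in at least 1 group and were tested among 22112 probesets. The other 14 lay under this signal in every group and have no test. They are the probesets of Gpx2, Gpx5, Gpx6, Gstm2, Gstm6, Gsto2, Gstp3, Gstt1, Gstz1, Nqo1, Prdx6-ps2, Sod3 and Txndc8, and 1 of the pair for Gstm3.

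Midbrain dopaminergic neurons were sorted from C57Bl/6 pups aged P1 to P4 as live EGFP+ cells, after dissection of the substantia nigra pars compacta (SNc) and the ventral tegmental area (VTA). All pups, controls included, carried Th-EGFP+/-, in which regulatory sequences of the tyrosine hydroxylase gene drive EGFP, so that the cells of every group were picked by the activity of that transgene. The genotypes were Pitx3+/+;Th-EGFP+/- (WT) and Pitx3-/-;Th-EGFP+/- (KO), which with the 2 dissections gave 4 groups of 2 arrays, named SNc WT and SNc KO, and VTA WT and VTA KO. Pitx3 is a transcription factor needed by the ventral SNc neurons, which die early in its absence, so that SNc KO cells lack much of that population. Sorted cells were stored in batches and pooled for each sample. The paper names 4 preparations of EGFP+ cells, with RNA purified in duplicate from each and duplicate hybridisations. None of the sources says that duplicates came from separate animals, so that a p-value here covers just the spread between such duplicates, which may be technical.

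Dopaminergic neurons make reactive oxygen species when they oxidise dopamine and fire as pacemakers, and ventral SNc neurons are the ones lost first in Parkinson disease. Superoxide dismutases turn superoxide into hydrogen peroxide, which catalase, glutathione peroxidases and peroxiredoxins then remove, the last 2 families with electrons from glutathione and thioredoxin. Glutathione S-transferases couple glutathione to reactive products such as lipid aldehydes, and metallothioneins bind zinc and copper and scavenge radicals. The comparisons ask whether SNc cells carry less mRNA of these defences than VTA cells, and what is different once the ventral population is missing.

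All 9 dopaminergic neuron markers exceeded a signal of 60 in every group, and Th, which makes the precursor of dopamine, had log2 signals between 10.01 and 10.34 on the 8 arrays. Of 7 ventral SNc markers, 5 (Aldh1a1, Drd2, Ndnf, Rgs6 and Sox6) fell in SNc KO against SNc WT at an adjusted p under 0.05 in limma, with a median log2 difference of -1.41 over the list. The list fell in VTA KO against VTA WT too, with a median of -0.69, 6 of 7 lower at an unadjusted p under 0.05 and 0 past adjustment. Of the 9 dopaminergic markers, 3 were lower in SNc KO than SNc WT and 2 in VTA KO than VTA WT at an unadjusted p under 0.05 in limma, and 0 were higher. The Pitx3 probeset read between 7.63 and 8.10 on the 8 arrays and was no lower in the KO groups, but which part of the gene is deleted and which is probed is not stated in the sources, so it checks neither genotype nor labels. In such bulk samples, fewer cells of a type and less RNA per cell cannot be told apart. Array medians lay between 6.11 and 6.24. The VTA KO duplicates differed most, with a median SD between duplicates of 0.207 over the tested members against 0.0941 in SNc WT, 0.137 in SNc KO and 0.0958 in VTA WT. VTA KO replicate 1 was below replicate 2 for 36 of 55 members (65.5%, against 49.6% of all tested probesets), by at least 0.5 for 16 of them. In SNc KO, replicate 1 was the lower one for 39 members (70.9%, against 51.6% of all).

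Most of the antioxidant mRNAs, like most of all tested probesets, differed little between pairs of the 4 groups. In SNc WT against VTA WT, 50 of 55 tested probesets differed by under 1.5-fold (90.9%, against 90.2% of all tested probesets), and the same count, 50, held for SNc KO against SNc WT (93.5% of all). Between VTA KO and VTA WT 49 differed by under 1.5-fold (92.2% of all), and between SNc KO and VTA KO 48 (89.3% of all). The median log2 difference of the members was 0.03 in SNc WT against VTA WT (0.008 over all tested probesets), 0.08 in SNc KO against SNc WT (0.014), -0.06 in VTA KO against VTA WT (-0.023) and 0.13 between SNc KO and VTA KO (0.035). Precision was limited: the 95% interval of the difference lay within 2-fold in either direction for 46, 49, 47 and 42 of the 55 members in these comparisons, taken in the same order. For the difference between the SNc and the VTA knockout effect, 41 members were under 1.5-fold (74.55%, against 85.69% of all tested probesets). The members' median there was 0.13 (0.037 over all).

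At an adjusted p under 0.05 in limma, Mt1 and Mt2 were the members called, both lower in SNc WT than VTA WT (2 of 55, with 0.357% of all tested probesets lower). No member was higher in that comparison (0.0814% of all). In SNc KO against SNc WT 0 members were called, with 0.0724% of all probesets higher and 0.0769% lower, and in VTA KO against VTA WT 0, with 0.00904% higher and 0.0% lower. The counts were also 0 in SNc KO against VTA KO (0.0407% higher and 0.109% lower) and for the difference between the SNc and the VTA knockout effect (0.0% higher and 0.0% lower). The lowest adjusted p of a member was 0.237, 0.223, 0.123 and 0.344 in these 4 comparisons by limma. The count for SNc KO against VTA KO rose to 6 without VTA KO replicate 2, as did that of all tested probesets (to 6.01%).

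At an unadjusted p under 0.05 in limma, 2 members were higher and 8 lower in SNc WT than VTA WT, with 8.59% of all probesets higher and 10.2% lower. In SNc KO against SNc WT 4 were higher and 1 lower (4.82% and 3.8% of all), and in VTA KO against VTA WT 2 were higher and 7 lower (4.73% and 5.51%). SNc KO against VTA KO gave 8 and 6 (9.73% and 7.81%), and the difference between knockout effects 8 and 3 (5.53% and 4.36%). With the thresholds of the study (an unadjusted p of 0.05 or less, here from limma, with a change of 1.5-fold or more and a group signal over the minimum of 60) the members counted 5 (6.62% of all) in SNc WT against VTA WT, 3 (3.6%) in SNc KO against SNc WT, 6 (4.35%) in VTA KO against VTA WT, 6 (6.96%) in SNc KO against VTA KO and 11 (6.74%) for the difference. Without VTA KO replicate 2 the members counted 12, 20 and 17 in the last 3 of these, while the share of all tested probesets went up to 8.82%, 15.9% and 12.1%. Without SNc KO replicate 2 the counts were 1 in SNc KO against SNc WT (3.78% of all) and 6 for the difference (6.1%). The last count was 7 without SNc WT replicate 1 (5.31% of all) or VTA WT replicate 2 (6.11%). The arrays of each group serve in 3 of these 5 comparisons, so the counts are not independent of each other. The heat map by array shows how few members stand out.

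**Figure D1:**
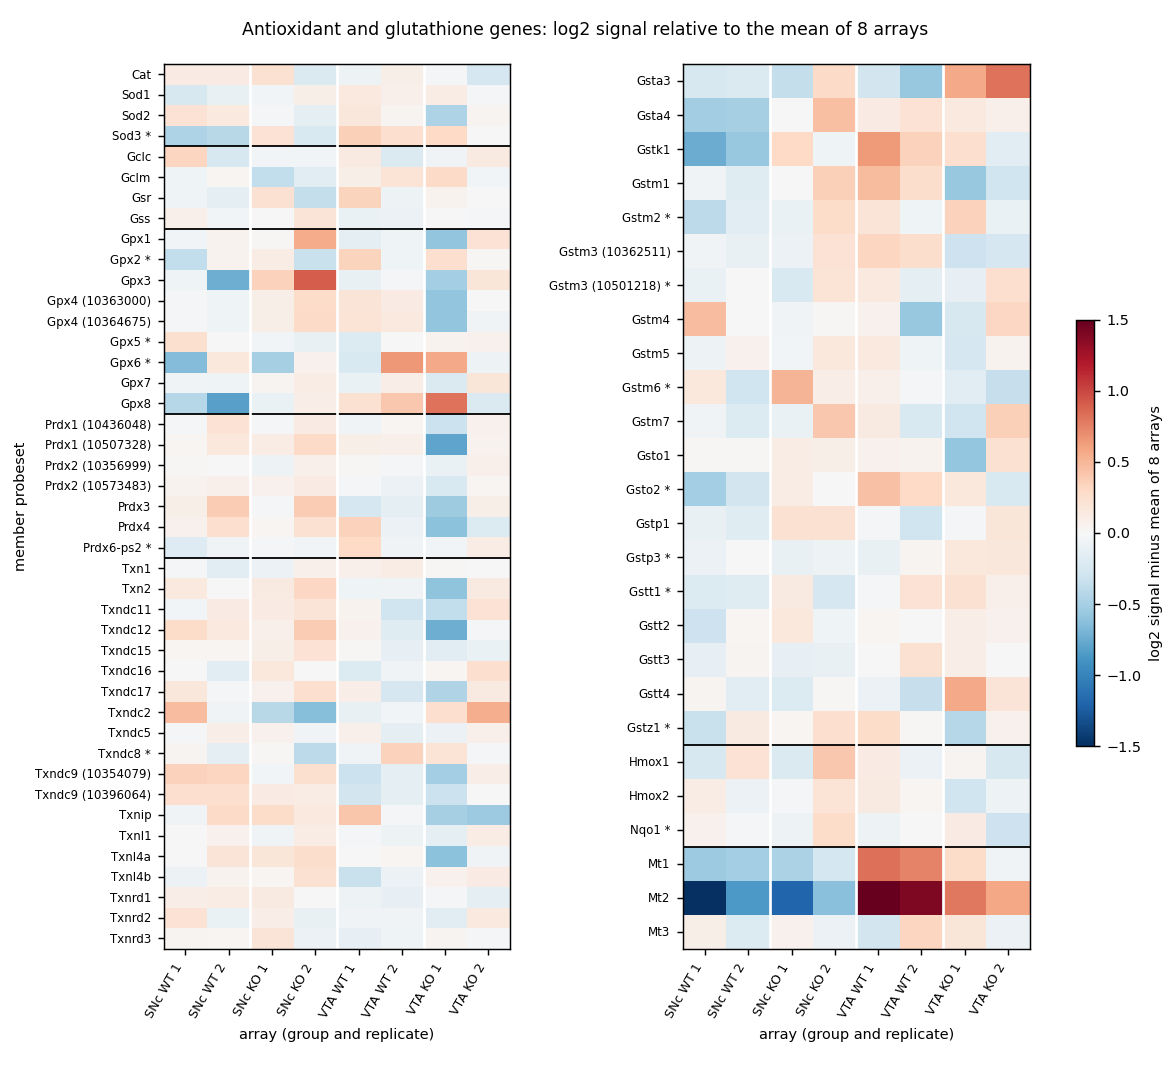
Log2 signal of each of the 69 member probesets on the 8 arrays (columns, by group and replicate) minus its mean over the arrays, from blue (lower) to red (higher). Black lines part the families, from superoxide dismutases and catalase at the upper left to metallothioneins at the lower right, and an asterisk marks the 14 probesets with no test. Mt2 has the strongest colours. Mt1 and Mt2 are blue in all 4 SNc arrays and red in both VTA WT arrays, while most rows are pale.

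Metallothioneins gave the clearest difference between the regions. Mt1 and Mt2, the widely expressed metal-inducible forms, had 2.48-fold and 6.47-fold less signal in SNc WT than in VTA WT. Mt1 had log2 signals of 6.68 and 6.70 in SNc WT, 6.74 and 6.96 in SNc KO, 8.04 and 7.96 in VTA WT, and 7.49 and 7.16 in VTA KO. All 4 SNc arrays lay below all 4 VTA arrays, and the VTA WT arrays were the highest. For Mt2 the values were 5.25 and 6.00 in SNc WT, 5.67 and 6.23 in SNc KO, 8.38 and 8.26 in VTA WT, and 7.66 and 7.44 in VTA KO. Again the regions did not overlap, and the SNc WT mean (5.62 ± 0.53, SD, n = 2) was under the signal of 60. The log2 difference between SNc WT and VTA WT was -1.31 (standard error 0.146, adjusted p = 0.0260 in limma) for Mt1 and -2.69 (standard error 0.288, adjusted p = 0.0219) for Mt2. Both calls were lost when any SNc WT, SNc KO or VTA WT array was left out, where calls over all tested probesets fell as well. The differences then stayed between -1.27 and -1.35 for Mt1 and between -2.32 and -3.07 for Mt2.

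Mt3, the brain form of the family, showed no such order. Its log2 signals were 7.54 and 7.25 in SNc WT, 7.51 and 7.36 in SNc KO, 7.17 and 7.77 in VTA WT, and 7.63 and 7.36 in VTA KO. The groups overlapped throughout, and the log2 difference between SNc WT and VTA WT was -0.08 (95% interval -0.62 to 0.47).

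In SNc KO, Mt1 and Mt2 had log2 differences from SNc WT of 0.16 (95% interval -0.19 to 0.51) and 0.33 (-0.37 to 1.02). The SNc duplicates overlapped for Mt2 and were apart by a small step for Mt1. In VTA KO both were below VTA WT without overlap, by log2 differences of -0.67 for Mt1 (standard error 0.146, adjusted p = 0.241 in limma) and -0.77 for Mt2 (standard error 0.288, adjusted p = 0.440), which did not pass adjustment. Between the knockout groups, SNc KO lay below VTA KO, by -0.48 for Mt1 (adjusted p = 0.206 in limma) and -1.60 for Mt2 (adjusted p = 0.123).

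**Figure D2:**
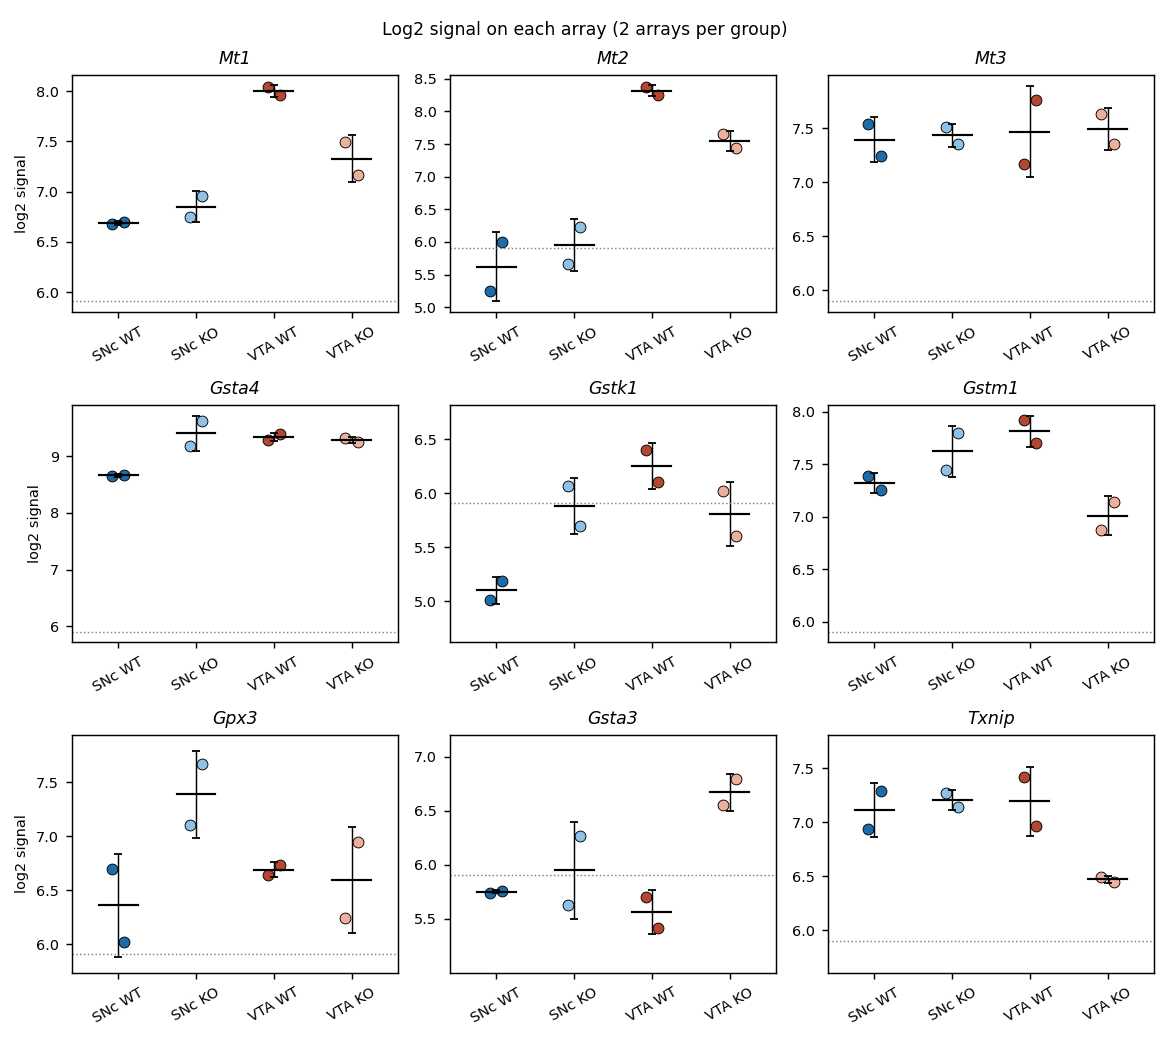
Log2 signal of 9 members on each array (points, 2 per group) with the group mean (horizontal bar) and SD (vertical bar, n = 2). The dotted line is the log2 signal of 5.91 used for testing, and vertical scales differ between panels. Mt1 and Mt2 are lower in both SNc groups than in both VTA groups, Gsta4 and Gstk1 are lowest in SNc WT, and Gstm1 and Txnip are lowest in VTA KO.

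Markers of ciliated cells moved with the metallothioneins, and those of astrocytes and some other cells did so in part. Of 12 markers of ependymal and other ciliated cells, 4 (Dynlrb2, Enkur, Mia and Rarres2) were below VTA WT in SNc WT at an adjusted p under 0.05 in limma, 10 lay below it at an unadjusted p under 0.05 and 0 above it, with a median log2 difference of -2.33. Their summed linear signal was 936 to 1008 in SNc WT, 1040 to 1048 in SNc KO, 4748 to 5377 in VTA WT and 2014 to 3351 in VTA KO, where 6 of the 12 lay below VTA WT at an unadjusted p under 0.05 (median -0.93). Foxj1, the regulator of motile cilia, was at 5.75 and 5.85 in SNc WT, under the signal of 60, and at 6.35 and 6.30 in VTA WT.

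Markers of astrocytes and radial glia, which also express metallothioneins, had a smaller difference: of 9 tested of 11 measured, 0 passed adjustment and 6 were lower in SNc WT at an unadjusted p under 0.05, and the median was -0.66. The summed signal of all 11 was 3546 to 3757 in SNc WT, 3705 to 3803 in SNc KO, 4778 to 5203 in VTA WT and 3058 to 3905 in VTA KO. Gfap and Aldh1l1, which define mature astrocytes, were under a signal of 60 in every group. Markers of VTA and dorsal SNc neurons were lower in SNc WT too: all 6 passed an unadjusted p under 0.05, 2 of them (Otx2 and Neurod6) an adjusted one in limma, with a median log2 difference of -1.16 and summed signals of 1427 to 1628 in SNc WT and 2962 to 3115 in VTA WT. Of 7 tested oligodendrocyte lineage markers, 3 were lower in SNc WT and 0 higher at an unadjusted p under 0.05 in limma (median -0.41). For pericytes and smooth muscle it was 4 lower and 0 higher of 9 tested (median -0.46). In both lists 0 passed adjustment. Markers of microglia and macrophages had the opposite order. Of 4 tested of 9 measured, Mrc1 was higher in SNc WT at an adjusted p of 0.0263 in limma, 2 were higher at an unadjusted p under 0.05 and 0 lower, and the median was 0.44. The part of any of these cells in the metallothionein difference was not tested.

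**Figure D3:**
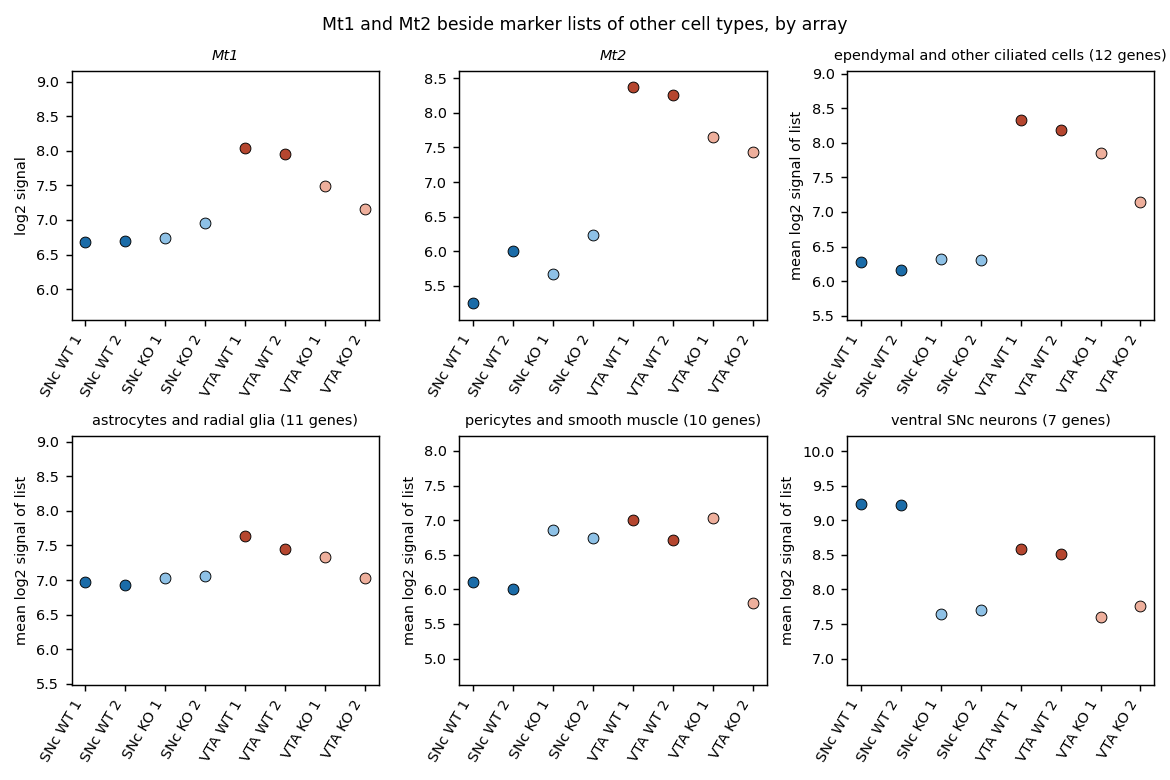
Log2 signal of Mt1 and Mt2 and the mean log2 signal of 4 marker lists, by array. The means of the ciliated cell list are 6.15 to 6.32 on the SNc arrays, 8.18 and 8.33 in VTA WT and 7.85 and 7.14 in VTA KO, in much the same order as Mt1, whereas the ventral SNc list is highest in SNc WT.

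Mt3, Mt2 and Mt1 are neighbouring genes on chromosome 8, and their promoters are shown because 2 of the 3 carry the main difference between the regions. Metallothionein genes are switched on by metals through the factor MTF1, which binds the metal response element, whose core is TGCGCNC or, in a second form, TGCACNC. Below are the 300 bases from 250 before to 50 after each transcription start (RefSeq, GRCm38.p6, all on the plus strand), at chr8:94178839-94179138 for Mt1, chr8:94172368-94172667 for Mt2 and chr8:94152357-94152656 for Mt3. Capitals mark matches to either core, on either strand.
Mt1: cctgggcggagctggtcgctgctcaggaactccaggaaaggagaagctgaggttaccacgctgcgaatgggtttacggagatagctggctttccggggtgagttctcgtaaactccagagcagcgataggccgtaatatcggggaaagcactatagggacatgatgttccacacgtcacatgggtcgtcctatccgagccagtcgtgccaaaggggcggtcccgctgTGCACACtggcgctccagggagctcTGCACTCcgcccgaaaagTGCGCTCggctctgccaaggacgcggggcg
Mt2: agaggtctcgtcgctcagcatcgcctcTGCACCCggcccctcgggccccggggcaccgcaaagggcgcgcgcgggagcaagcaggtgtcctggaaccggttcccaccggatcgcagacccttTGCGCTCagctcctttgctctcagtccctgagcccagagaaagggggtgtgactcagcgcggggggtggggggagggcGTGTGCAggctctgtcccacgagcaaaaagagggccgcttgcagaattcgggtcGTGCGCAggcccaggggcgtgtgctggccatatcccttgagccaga
Mt3: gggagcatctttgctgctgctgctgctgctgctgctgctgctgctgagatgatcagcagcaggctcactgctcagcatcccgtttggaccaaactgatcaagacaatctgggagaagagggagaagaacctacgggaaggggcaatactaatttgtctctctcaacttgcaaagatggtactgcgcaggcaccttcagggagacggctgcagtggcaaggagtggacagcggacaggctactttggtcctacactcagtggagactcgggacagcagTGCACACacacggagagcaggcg

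Mt1 held 3 matches, 1 of them upstream of the start, Mt2 held 4, of which 3 upstream, and Mt3 held 1, downstream of its start. Of 74 promoters for 55 of the 64 member genes, 27.0% held at least 1 match to either core, against 25.7% of 32851 promoters of all genes, and 1.35% against 0.517% held 4 or more. The antioxidant response element core, TGACNNNGC, was found in 11 of the 74 (14.9%) and in 12.4% of all promoters. Within these windows Mt2 was the metallothionein with such a match, which did not overlap its metal response element matches. Mtf1, the gene for the metal-sensing factor itself, had log2 signals of 7.75 and 7.65 in SNc WT and 7.70 and 7.43 in VTA WT, a difference of 0.14 (adjusted p = 0.643 in limma).

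Glutathione S-transferases held 20 probesets, of which 13 were tested. The median log2 difference of the family was -0.08 in SNc WT against VTA WT (0.02 once array medians were subtracted, -0.07 after quantile normalization), 0.19 in SNc KO against SNc WT and -0.06 between VTA KO and VTA WT. None of the 13 passed adjustment in any comparison. At an unadjusted p under 0.05 in limma, 0 were higher and 4 lower in SNc WT than VTA WT (8.59% and 10.2% of all tested probesets). In SNc KO against SNc WT 3 were higher and 0 lower (4.82% and 3.8% of all), and in VTA KO against VTA WT 2 and 2 (4.73% and 5.51%). Many of these genes are near copies of each other, so that their probes may share signal, and values of single members are uncertain to that extent.

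Gsta4, which removes 4-hydroxynonenal, a toxic product of lipid peroxidation, was lowest in SNc WT. Its log2 signals were 8.65 and 8.68 there, 9.18 and 9.63 in SNc KO, 9.29 and 9.40 in VTA WT, and 9.32 and 9.25 in VTA KO. The SNc WT arrays lay below the other 6, which overlapped each other. The log2 difference was -0.68 in SNc WT against VTA WT (standard error 0.159, adjusted p = 0.121 in limma) and 0.74 in SNc KO against SNc WT (standard error 0.159, adjusted p = 0.237), 2 comparisons that share the SNc WT arrays. VTA KO against VTA WT gave a difference of -0.06 (95% interval -0.44 to 0.33).

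Gstk1, the transferase of mitochondria and peroxisomes, had a similar set of values. Its log2 signals were 5.01 and 5.19 in SNc WT, 6.06 and 5.70 in SNc KO, 6.40 and 6.10 in VTA WT, and 6.02 and 5.60 in VTA KO. SNc WT was again below the other 6 arrays, but VTA WT was the only group whose mean exceeded a signal of 60. The difference was -1.15 in SNc WT against VTA WT (standard error 0.205, adjusted p = 0.0830 in limma). Its adjusted p came under 0.05 with array weights (0.0280 in limma) and without either VTA KO array, where calls over all tested probesets rose as well. In SNc KO against SNc WT the difference was 0.78 (standard error 0.205, adjusted p = 0.347 in limma).

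Gstm1 and Gstm3 are cytosolic enzymes of the mu class that lie in 1 cluster on chromosome 3. Gstm1 and the tested probeset of Gstm3 were lowest in VTA KO. Gstm1 had log2 signals of 7.39 and 7.25 in SNc WT, 7.45 and 7.80 in SNc KO, 7.92 and 7.71 in VTA WT, and 6.88 and 7.14 in VTA KO. The tested Gstm3 probeset (10362511) had 6.15 and 6.10 in SNc WT, 6.12 and 6.43 in SNc KO, 6.53 and 6.48 in VTA WT, and 5.89 and 5.96 in VTA KO. Both VTA KO arrays were below all other arrays for Gstm1 and for this Gstm3 probeset. The other Gstm3 probeset (10501218), under the signal of 60 in every group and not tested, did not share this order. It had 5.59 and 5.68 in SNc WT, 5.46 and 5.88 in SNc KO, 5.83 and 5.53 in VTA WT, and 5.56 and 5.93 in VTA KO. The log2 difference in VTA KO against VTA WT was -0.81 for Gstm1 (standard error 0.169, adjusted p = 0.235 in limma) and -0.58 for Gstm3 (standard error 0.131, adjusted p = 0.250). SNc WT was also below VTA WT, by -0.49 for Gstm1 and -0.38 for Gstm3 (adjusted p = 0.207 and 0.211 in limma). Of their tested neighbours in the cluster, Gstm4, Gstm5 and Gstm7 had differences of 0.28, -0.14 and 0.08 in VTA KO against VTA WT.

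Gsta3 and Gstt4 were the members above VTA WT in VTA KO at an unadjusted p under 0.05. Gsta3, of the alpha class, had log2 signals of 5.74 and 5.76 in SNc WT, 5.63 and 6.27 in SNc KO, 5.71 and 5.42 in VTA WT, and 6.55 and 6.79 in VTA KO. For Gstt4, of the theta class, they were 5.71 and 5.50 in SNc WT, 5.47 and 5.69 in SNc KO, 5.59 and 5.32 in VTA WT, and 6.24 and 5.87 in VTA KO. Only VTA KO reached the signal of 60 for Gstt4. For Gsta3 the means of SNc WT and VTA WT (5.75 and 5.56) were under it. VTA KO exceeded VTA WT by a log2 difference of 1.11 for Gsta3 (standard error 0.226, adjusted p = 0.223 in limma) and 0.60 for Gstt4 (standard error 0.180, adjusted p = 0.340).

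Gstp1, the pi-class enzyme, had log2 signals of 10.44 and 10.37 in SNc WT, 10.78 and 10.78 in SNc KO, 10.52 and 10.24 in VTA WT, and 10.52 and 10.72 in VTA KO. The SNc groups did not overlap, and their log2 difference was 0.37 (standard error 0.136, adjusted p = 0.514 in limma).

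In the SNc comparison of genotypes, markers of other cells moved too. Of 6 markers of VTA and dorsal SNc neurons, 4 were higher in SNc KO at an unadjusted p under 0.05, 1 of them (Otx2) at an adjusted p in limma, and the median log2 difference was 0.94. Their mean log2 signal, at 7.37 and 7.16 in SNc WT, 7.92 and 8.05 in SNc KO, 8.59 and 8.74 in VTA WT, and 8.27 and 8.41 in VTA KO, was lowest in SNc WT, as for Gsta4 and Gstk1. Markers of microglia and macrophages were lower in SNc KO: of 4 tested of 9 measured, Mrc1 passed adjustment in limma and 2 had an unadjusted p under 0.05. Their median log2 difference was -0.57. The log2 signals of Mrc1 were 6.59 and 6.81 in SNc WT and 5.43 and 5.19 in SNc KO, and Aif1, Csf1r, C1qa, C1qb and Itgam were under a signal of 60 in every group. The summed linear signal of the 9 was 634 to 731 in SNc WT, 534 to 569 in SNc KO, 513 to 608 in VTA WT and 497 to 566 in VTA KO. Of 9 tested pericyte and smooth muscle markers (10 measured), 2 were higher in SNc KO at an unadjusted p under 0.05 and 0 passed adjustment in limma, with summed linear signals of 776 to 890 in SNc WT, 1830 to 2037 in SNc KO, 1815 to 2415 in VTA WT and 596 to 2306 in VTA KO. The part of all these cells, or of the missing ventral neurons, in the values of Gsta4, Gstk1, Gstp1 and Gpx3 was not tested.

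Glutathione peroxidases reduce peroxides with glutathione. Of 9 probesets 6 were tested, and their median log2 difference was -0.21 in SNc WT against VTA WT, 0.25 in SNc KO against SNc WT and -0.09 between VTA KO and VTA WT. Gpx3, a secreted form, had log2 signals of 6.70 and 6.02 in SNc WT, 7.10 and 7.67 in SNc KO, 6.64 and 6.74 in VTA WT, and 6.25 and 6.94 in VTA KO. SNc KO was above all other arrays, and the duplicates of most groups lay far apart. The difference from SNc WT was 1.03 (standard error 0.329, adjusted p = 0.449 in limma).

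Gpx8, a form of the endoplasmic reticulum, had log2 signals of 6.68 and 6.29 in SNc WT, 7.01 and 7.20 in SNc KO, 7.34 and 7.51 in VTA WT, and 7.92 and 6.89 in VTA KO. SNc WT was below all other arrays, and the log2 difference from VTA WT was -0.94 (standard error 0.330, adjusted p = 0.215 in limma). Gpx4, which reduces lipid peroxides in membranes and is the barrier to ferroptosis, had log2 signals in the probeset 10364675 of 9.31 and 9.27 in SNc WT, 9.41 and 9.61 in SNc KO, 9.53 and 9.47 in VTA WT, and 8.73 and 9.28 in VTA KO. VTA KO replicate 1 was the lowest array and replicate 2 lay beside SNc WT. The difference in VTA KO against VTA WT was -0.50 (standard error 0.188, adjusted p = 0.447 in limma) and -0.22 without VTA KO replicate 1. Its other probeset, 10363000, gave -0.46 for the same comparison.

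Gpx1, the main cytosolic form, had log2 signals of 8.25 and 8.35 in SNc WT, 8.31 and 8.85 in SNc KO, 8.16 and 8.23 in VTA WT, and 7.70 and 8.51 in VTA KO. Of the groups compared, SNc WT and VTA WT alone did not overlap, and they differed by 0.11 (95% interval -0.59 to 0.80).

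Superoxide dismutases and catalase differed by under 1.5-fold in all 3 tested probesets of each comparison. Sod1, the cytosolic copper and zinc enzyme, had log2 signals of 11.29 and 11.41 in SNc WT, 11.48 and 11.61 in SNc KO, 11.67 and 11.60 in VTA WT, and 11.63 and 11.50 in VTA KO. SNc WT was below the other 6 arrays, by a log2 difference of -0.29 from VTA WT (95% interval -0.56 to -0.01, adjusted p = 0.250 in limma). Sod2, the mitochondrial manganese enzyme, was at 7.79 and 7.72 in SNc WT, 7.55 and 7.44 in SNc KO, 7.75 and 7.61 in VTA WT, and 7.11 and 7.62 in VTA KO. Its difference was 0.08 in SNc WT against VTA WT (95% interval -0.35 to 0.50) and -0.26 in SNc KO against SNc WT (-0.69 to 0.17). Cat had log2 signals of 7.83 and 7.84 in SNc WT, 7.94 and 7.50 in SNc KO, 7.64 and 7.80 in VTA WT, and 7.68 and 7.47 in VTA KO, and its interval in SNc WT against VTA WT was -0.30 to 0.53.

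The 4 enzymes that make and recycle glutathione were all tested and all differed by under 1.5-fold in every comparison. Gclc, the catalytic subunit of the rate-limiting ligase, had log2 signals of 8.18 and 7.61 in SNc WT, 7.82 and 7.81 in SNc KO, 7.99 and 7.64 in VTA WT, and 7.81 and 8.00 in VTA KO. Its regulatory subunit Gclm had 7.54 and 7.64 in SNc WT, 7.24 and 7.45 in SNc KO, 7.70 and 7.82 in VTA WT, and 7.89 and 7.57 in VTA KO. Gclc overlapped between all groups, and Gclm in SNc KO lay below VTA KO by -0.39 on the log2 scale (standard error 0.150, adjusted p = 0.265 in limma). Gsr, which restores oxidised glutathione, was at 7.04 and 6.98 in SNc WT, 7.34 and 6.75 in SNc KO, 7.44 and 7.03 in VTA WT, and 7.16 and 7.12 in VTA KO. Gss, the synthase of the second step, stayed between 6.67 and 6.96 on all arrays. In SNc WT against VTA WT the family's intervals ran from -0.77 to 0.60.

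Peroxiredoxins, which remove peroxides with thioredoxin, gave 6 tested probesets of 7. At an unadjusted p under 0.05 in limma, 0 of them passed in SNc WT against VTA WT (8.59% of all tested probesets higher and 10.2% lower). In SNc KO against SNc WT it was also 0 (4.82% and 3.8% of all). Their medians in these comparisons were 0.07 and -0.02. Prdx1 (10507328) had log2 signals of 9.23 and 9.36 in SNc WT, 9.31 and 9.49 in SNc KO, 9.29 and 9.29 in VTA WT, and 8.41 and 9.26 in VTA KO. Prdx2 (10573483), the abundant form of neurons, had 11.52 and 11.54, 11.53 and 11.58, 11.44 and 11.38, and 11.24 and 11.49 in the same order of groups. Apart from the low VTA KO replicate 1, both genes were nearly level across the arrays.

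Prdx3, of mitochondria, had log2 signals of 7.42 and 7.70 in SNc WT, 7.31 and 7.71 in SNc KO, 7.07 and 7.18 in VTA WT, and 6.79 and 7.41 in VTA KO. SNc WT lay above VTA WT by a log2 difference of 0.43 (95% interval -0.15 to 1.02). Prdx4, of the endoplasmic reticulum, was at 7.10 and 7.30 in SNc WT, 7.08 and 7.27 in SNc KO, 7.39 and 6.95 in VTA WT, and 6.43 and 6.84 in VTA KO. Both VTA KO arrays were the lowest, by a log2 difference of -0.53 from VTA WT (standard error 0.207, adjusted p = 0.456 in limma), and by -0.33 without VTA KO replicate 1. Prdx5 and Prdx6 have no probeset under the rule and were not analysed here.

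The thioredoxin group held 19 probesets, 18 of them tested, and includes proteins that only share the thioredoxin fold or bind it. Its median log2 difference was 0.13 for SNc WT against VTA WT and 0.05 for SNc KO against SNc WT. Txn1, the cytosolic thioredoxin, had log2 signals of 11.08 and 10.94 in SNc WT, 11.02 and 11.19 in SNc KO, 11.18 and 11.22 in VTA WT, and 11.13 and 11.12 in VTA KO. Mitochondrial Txn2 had 8.06 and 7.92, 8.05 and 8.23, 7.85 and 7.87, and 7.31 and 8.05 in the same order. The reductase Txnrd1 was at 7.44 and 7.46 in SNc WT, 7.48 and 7.34 in SNc KO, 7.27 and 7.23 in VTA WT, and 7.33 and 7.21 in VTA KO. None of the 3 passed an unadjusted p under 0.05 in any comparison, and the interval of Txnrd1 in SNc WT against VTA WT was -0.06 to 0.46.

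Txnip, which binds and inhibits thioredoxin, was lowest in VTA KO. Its log2 signals were 6.94 and 7.29 in SNc WT, 7.28 and 7.14 in SNc KO, 7.42 and 6.97 in VTA WT, and 6.49 and 6.45 in VTA KO. The VTA KO duplicates were close to each other and below the other 6 arrays, which overlapped. The difference was -0.72 in VTA KO against VTA WT (standard error 0.189, adjusted p = 0.286 in limma) and 0.74 in SNc KO against VTA KO (standard error 0.189, adjusted p = 0.178).

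Both probesets of Txndc9, a thioredoxin-like protein that acts with the chaperonin CCT, were the only members above VTA WT in SNc WT at an unadjusted p under 0.05. The probeset 10396064 had log2 signals of 8.38 and 8.39 in SNc WT, 8.25 and 8.24 in SNc KO, 7.85 and 8.00 in VTA WT, and 7.81 and 8.13 in VTA KO, and SNc arrays exceeded all VTA arrays. The difference between SNc WT and VTA WT was 0.46 (standard error 0.135, adjusted p = 0.166 in limma), and 0.56 for the probeset 10354079 (standard error 0.214, adjusted p = 0.237). In that second probeset the regions were not fully apart, since SNc KO and VTA KO overlapped. Txndc2, the thioredoxin of sperm, had log2 signals of 6.19 and 5.67 in SNc WT, 5.31 and 5.09 in SNc KO, 5.61 and 5.68 in VTA WT, and 5.97 and 6.26 in VTA KO. SNc KO was below all other arrays and under the signal of 60, by a log2 difference of -0.73 from SNc WT (standard error 0.202, adjusted p = 0.374 in limma). In SNc KO against VTA KO, Txndc12, Txndc15 and the splicing protein Txnl4a had log2 differences of 0.60, 0.29 and 0.56, at adjusted p of 0.281, 0.259 and 0.234 in limma.

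Heme oxygenases break heme down to biliverdin. Hmox1, the inducible form, had log2 signals of 5.69 and 6.15 in SNc WT, 5.72 and 6.33 in SNc KO, 6.05 and 5.84 in VTA WT, and 5.96 and 5.69 in VTA KO. Its groups overlapped and lay about the signal of 60. Constitutive Hmox2 was at 8.83 and 8.63 in SNc WT, 8.70 and 8.93 in SNc KO, 8.85 and 8.74 in VTA WT, and 8.42 and 8.64 in VTA KO, with a difference of -0.07 in SNc WT against VTA WT (95% interval -0.41 to 0.28). Nqo1, a quinone reductase and a standard target of Nrf2, had mean log2 signals of 4.76 ± 0.062 (SD, n = 2) and 4.83 in the SNc groups WT and KO, and of 4.70 and 4.64 in the VTA groups, all under the signal of 60, and was not tested.

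**Figure D4:**
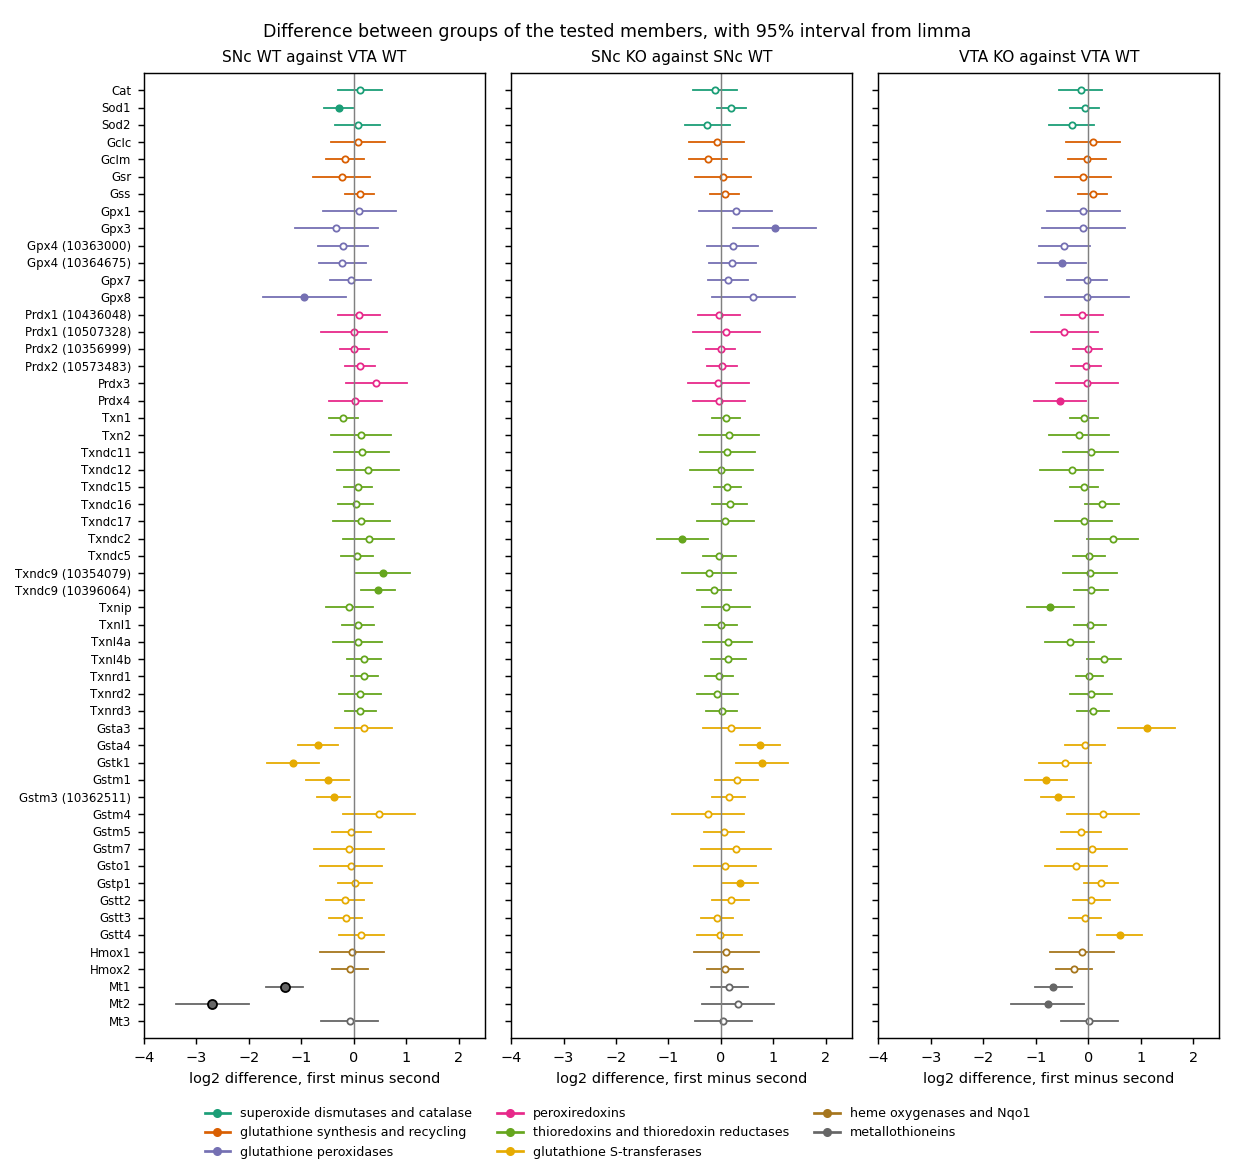
Log2 difference of each of the 55 tested members (points) with the 95% interval from limma (lines), in 3 comparisons, coloured by family. Filled points have an unadjusted p under 0.05, and the ringed black points of Mt1 and Mt2 at the left an adjusted p under 0.05. Mt2 lies farthest from 0, at -2.69, and most intervals cross the grey line at 0.

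Knockout effects in SNc and VTA were also set against each other directly. The difference of effects was 1.22 for Gstk1 (standard error 0.290, adjusted p = 0.354 in limma), 1.11 for Gstm1 (standard error 0.239, adjusted p = 0.344), -1.20 for Txndc2 (standard error 0.285, adjusted p = 0.354) and 0.83 for Mt1 (standard error 0.206, adjusted p = 0.370) on the log2 scale. Gstk1 passed the signal minimum through VTA WT alone, and Txndc2 was under it in SNc KO and VTA WT (means of 5.20 and 5.65). None of these differences passed adjustment, and the interval lay within 2-fold in either direction for 31 of the 55 members, the fewest of the 5 comparisons.

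Regulators and partners of these enzymes were read from a separate list of 64 genes around Nrf2, the factor that induces antioxidant genes, of which 59 were measured and 51 tested. Nfe2l2, the gene of Nrf2 itself, and Slc7a11, the cystine carrier for glutathione synthesis, were under a signal of 60 in every group. In SNc WT against VTA WT 1 was lower and 0 were higher at an adjusted p under 0.05 in limma (0.357% and 0.0814% of all tested probesets). At an unadjusted p under 0.05 in limma 4 were higher and 4 lower (8.59% and 10.2% of all). The one called was Mgst1, a microsomal glutathione transferase of membranes. Its log2 signals were 4.56 and 4.78 in SNc WT, 4.78 and 4.93 in SNc KO, 6.33 and 6.15 in VTA WT, and 4.85 and 4.49 in VTA KO. VTA WT stood alone above the other 6 arrays, which were all under the signal of 60, so that Mgst1 was tested through VTA WT alone and its difference is set against values under the minimum. It had a difference of -1.57 in SNc WT (adjusted p = 0.0200 in limma) and -1.58 for VTA KO against VTA WT (adjusted p = 0.0746).

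Tkt, of the pentose phosphate pathway, Idh1, which makes NADPH, Slc3a2, the partner chain of the cystine carrier, and the Nrf2 relative Nfe2l1 had log2 differences of 0.38, 0.31, 0.53 and 0.31 in SNc WT against VTA WT, with adjusted p of 0.200 to 0.215 in limma. The other lower ones were Sesn3, a sestrin, at -0.29 (adjusted p = 0.224), Oplah, the 5-oxoprolinase of the glutathione cycle, at -0.31 (adjusted p = 0.230) and, named after its values were seen, the mitochondrial methionine sulfoxide reductase Msrb2 at -0.56 (adjusted p = 0.240 in limma). In SNc KO against SNc WT 1 partner was higher and 2 were lower at an unadjusted p under 0.05 in limma (4.82% and 3.8% of all tested probesets). Their log2 differences were 0.44 for Msrb1, a methionine sulfoxide reductase, -0.57 for Slc3a2 and -0.37 for Mtf1 (adjusted p = 0.551, 0.462 and 0.560 in limma). In VTA KO against VTA WT 1 was higher and 2 were lower (4.73% and 5.51% of all). The higher one was Mgst3 at 0.40 (adjusted p = 0.468 in limma). Those lower were Mgst1 and Msra, also a methionine sulfoxide reductase, the latter at -0.69 (adjusted p = 0.222 in limma). The medians of the 51 tested partners were 0.03, 0.12 and -0.02 in these comparisons, taken in the same order.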

How the data were processed

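Total RNA of FAC-sorted cells was amplified and hybridised to Affymetrix Mouse Gene 1.0 ST arrays, 8 in all and 2 per group. The deposited values are log2 signals that the authors made with RMA (named in the submitters' processing notes, and as RMA Express in the methods). Neither its version nor a genome build is given in the sources used here. The files give no scan date, and 0 columns of other samples are present. Symbols came from the platform annotation, and the gene IDs of all 69 member probesets were found in the GRCm38.p6 gene table with 0 symbols changed. Precision is that of 2 arrays per group.

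Probesets with a mean linear signal of at least 60 in at least 1 group entered a linear model (limma 3.58.1, R 4.3.3) that gave each group its mean over all 8 arrays (4 residual and 2.4 prior degrees of freedom), and p-values were adjusted by Benjamini-Hochberg over all probesets tested in a comparison. The methods name the LPE algorithm, which was not run, and limma's p stands in its place. The code was tested on simulated data. Members and lists were chosen with earlier results of these data known. Values by array are given for members with an unadjusted p under 0.05 in any comparison and for the best known member of a family, whatever its p. Txndc12, Txndc15, Txnl4a and the Txndc9 probeset 10354079, which had such a p, are given by their differences alone. Partners from the Nrf2 list are named where called, and otherwise as up to 6 with the smallest p in a comparison. The second form of the metal response element was added after the first search of the promoters. Alternatives were other signal minimums, the arrays compared alone, a replicate block, median subtraction, quantile normalization, a variance trend, array weights and leaving out each array. Promoters were searched and figures drawn in Python 3.11.15.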

Additional observations from a re-analysis of the deposited data

How the results depend on the processing

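With 2 arrays per group, the 49 member comparisons with an unadjusted p under 0.05 in the main limma fit kept their direction under every alternative run, while calls moved. They were picked by that p from these same arrays. Several alternatives, such as another signal minimum or a variance trend, leave the difference itself unchanged. Their kept direction is therefore no independent support. Of 757 values recomputed for them, 738 kept their side of the adjusted p threshold, 14 lost the call and 5 gained it. Mt1 was called in 8 of 16 settings and Mt2 in 10 of 16. Members called in SNc WT against VTA WT went from 2 to 1 with no filter on low signal (Mt1 at an adjusted p of 0.0523 in limma), and ran from 0 to 3 when single arrays were left out (3, with Gstk1, without either VTA KO array). The unfiltered fit tests more probesets, and those without an array have fewer degrees of freedom. Calls over all tested probesets in this comparison also fell where the members fell to 0, and rose without either VTA KO array. Replicate numbers did not pair the samples (correlations of their deviations of 0.00577 to 0.098 between groups), and with the replicate number as a block 1 member was called (Mt2, with Mt1 at an adjusted p of 0.0588 in limma).

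Subtracting array medians moved the median of all tested probesets in SNc WT against VTA WT from 0.008 to 0.114 and that of the members from 0.03 to 0.14, by construction, since it shifts every probeset of an array alike. Under quantile normalization the members' median was -0.0079, against 0.0078 for all tested probesets, and with single arrays left out it ran from -0.0168 to 0.0728. The medians of the glutathione S-transferases, of glutathione synthesis and of the heme oxygenases, -0.08, -0.04 and -0.05, became 0.02, 0.06 and 0.06 with that uniform shift, and were -0.07, -0.11 and -0.04 under quantile normalization. Leaving out single arrays, the members past the thresholds of the study ran from 1 to 4 in SNc KO against SNc WT (1 without SNc KO replicate 2), from 4 to 12 in VTA KO against VTA WT (12 without VTA KO replicate 2), from 4 to 20 in SNc KO against VTA KO (20 without VTA KO replicate 2) and from 6 to 17 for the difference of knockout effects (6 without SNc KO replicate 2, 17 without VTA KO replicate 2). The members' median then ran from -0.1124 to 0.0407 in VTA KO against VTA WT (0.0407 without VTA KO replicate 1) and from 0.0056 to 0.2472 for the difference (without VTA KO replicate 1 and VTA WT replicate 2). Members called in SNc KO against VTA KO ran from 0 to 6, with 6 without VTA KO replicate 2, among them Gpx4 and Txnl4a. Without VTA KO replicate 2, all tested probesets past the thresholds of the study also rose in number in the comparisons that use VTA KO. Those called in SNc KO against VTA KO rose too. Without SNc KO replicate 2 the number past the thresholds rose slightly in SNc KO against SNc WT and fell for the difference. The fit on the compared arrays alone could not be made for the difference of knockout effects.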
